A study of Mus musculus with 8 samples.

Results

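The Müller glia homeostasis genes described here were 10 genes of the mouse retina, Glul, Slc1a3, Slc1a2, Aqp4, Kcnj10, Car14, Dkk3, Apoe, Clu and Vim. They were taken by gene name, without use of their values, and all 10 were present among the 57010 genes of the table. RNA came from the retina of C57BL/6J mice aged 17 days with oxygen-induced retinopathy (OIR), a model of vessel loss under high oxygen followed by abnormal vessel growth once pups breathe room air again. The control group held 4 libraries from retinas given a control scAAV, a self-complementary adeno-associated virus. The knockdown group held 4 libraries from retinas given an scAAV meant to knock down lncRNA-MM2P, a long noncoding RNA. The treatment label of this group reads as a knockout, and the measured level of the targeted RNA is given below. All 8 libraries thus shared the strain, the age, OIR and exposure to a vector, and no library without OIR or without a vector was analysed here. The serotype, the promoter and the cells reached by the vectors, and whether each library came from a separate animal, were not stated in the sources used here. P-values therefore measure the spread between these samples, which may be technical.

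Müller glia span the retina from its inner to its outer border and serve every neuron in it. They take up the glutamate that neurons release and turn it into glutamine, carry potassium and water away from active synapses, buffer acid, and supply lipid to neurons. In injury they become reactive, a state called gliosis, in which intermediate filament genes and acute response genes rise and homeostasis genes may fall. Most of these genes are not exclusive to Müller glia: Apoe is also made by microglia, Clu and Vim by astrocytes, and Slc1a2 by cones and bipolar cells of the mouse retina. In RNA from whole retina, fewer cells of a type and less RNA per cell cannot be told apart.

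Promoter sequences from RefSeq, on GRCm38.p6, were matched to 7 of the 10 genes, each covering 250 bases before and 50 after the annotated start. Those of the most abundant gene, Glul, and of 3 of the 5 genes that were highest in 1 library, knockdown 1, are printed 5′ to 3′. Dkk3 and Clu, also highest in that library, were among the genes without a match. No result below rests on these sequences. Capitals mark matches on either strand to 5 motifs, TATAAA (the TATA box), GGGCGG (the GC box), ACGTG (the core bound by hypoxia-inducible factors), TTCNNNGAA (the STAT motif) and TGANTCA (the AP-1 motif).
Glul promoter, chr1:153899679-153899978, plus strand: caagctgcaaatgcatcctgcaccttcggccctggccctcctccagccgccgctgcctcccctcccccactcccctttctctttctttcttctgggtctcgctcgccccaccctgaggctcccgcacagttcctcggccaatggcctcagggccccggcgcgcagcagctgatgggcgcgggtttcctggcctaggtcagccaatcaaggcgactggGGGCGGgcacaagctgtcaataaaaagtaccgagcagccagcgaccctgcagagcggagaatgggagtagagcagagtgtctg
Slc1a3 promoter, chr15:8710758-8711057, minus strand: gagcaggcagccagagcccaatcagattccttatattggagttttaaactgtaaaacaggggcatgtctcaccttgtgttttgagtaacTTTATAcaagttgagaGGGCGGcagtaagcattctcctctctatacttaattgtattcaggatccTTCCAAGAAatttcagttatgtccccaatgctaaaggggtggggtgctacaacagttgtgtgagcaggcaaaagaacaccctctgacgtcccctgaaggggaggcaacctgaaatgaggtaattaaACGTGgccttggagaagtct
Apoe promoter, chr7:19699139-19699438, minus strand: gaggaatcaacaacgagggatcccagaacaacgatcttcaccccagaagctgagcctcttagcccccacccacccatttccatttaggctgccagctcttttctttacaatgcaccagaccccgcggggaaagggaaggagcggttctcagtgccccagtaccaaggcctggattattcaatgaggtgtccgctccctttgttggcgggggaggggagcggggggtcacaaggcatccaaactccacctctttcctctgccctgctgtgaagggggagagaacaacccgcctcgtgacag
Vim promoter, chr2:13574061-13574360, plus strand: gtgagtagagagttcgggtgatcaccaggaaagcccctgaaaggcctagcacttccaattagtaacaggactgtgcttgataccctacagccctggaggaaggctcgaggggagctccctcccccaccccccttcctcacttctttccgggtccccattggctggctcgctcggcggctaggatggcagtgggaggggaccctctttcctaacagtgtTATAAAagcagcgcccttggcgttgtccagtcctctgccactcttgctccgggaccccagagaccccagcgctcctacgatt

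The Glul window held a GC box whose first base lay at -33 from the start, and the Vim window a TATA box at -32. The Slc1a3 window held a TATA box at -161, read on the opposite strand, a GC box at -145, a STAT motif at -96 and the hypoxia core at 30. The Apoe window held no match to any of the 5 motifs. None of the 4 windows held the AP-1 motif, which 7.79% of 32544 mouse promoter windows of the same length did. The share of those windows was 35.88% for the GC box, 19.71% for the hypoxia core, 13.57% for the TATA box and 8.33% for the STAT motif. A match is a description of letters and not evidence of binding, and the motifs were not tested against the values. The Vim window starts from a RefSeq start that lies 384 bases inside the GENCODE gene.

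Library totals ranged from 16.03 to 21.4 M estimated counts (M, 1000000). They averaged 20.8 ± 0.446 M in control and 18.5 ± 1.78 M in knockdown libraries (SD, n = 4 each; exact two-sided permutation test, p = 0.0286, the smallest that 70 assignments allow, and 0.0571 adjusted over 2 measures). The targeted RNA, listed as Mm2pr, had 1, 1, 16.95 and 7.34 counts in the control libraries and 0, 0, 2 and 20.61 in the knockdown libraries, so its level did not separate the labels. The rod gene Gnat1, which encodes rod transducin, stood at 7539 ± 221 counts per 1000000 (CPM) in control and 6833 ± 492 CPM in knockdown libraries. Of 19 other Müller glia identity markers, such as Rlbp1, a retinaldehyde-binding protein, 19 passed the expression filter, and their summed level was 1530 to 1629 CPM in control and 1539 to 1680 CPM in knockdown libraries, the 1680 CPM being in knockdown 1. The sex of the mice was not labelled: the Y-linked gene Ddx3y was listed at 0 in 3 libraries, control 3 held Xist at 0.103 TPM, and the other 4 libraries held both. In the knockdown group, 1 library, knockdown 1, stood apart: its summed gliosis genes reached 1666 CPM against 660 to 766 CPM in the other 7 libraries. Its ganglion cell markers summed to 1278 CPM against 1403 to 1691 CPM in the others. Knockdown 3 and 4, at 1403 and 1474 CPM, also lay below the lowest control sum of these markers, 1516 CPM. The amacrine and horizontal cell markers of knockdown 1 summed to 849 CPM against 969.8 to 994 CPM in the others. Its retinal pigment epithelium markers summed to 204.5 CPM against 147 to 201 CPM, its microglial markers to 113 CPM against 76.8 to 98.1 CPM and its astrocyte markers to 305 CPM against 207 to 232 CPM. Their part in the results was not tested. Lens genes, at 5.38 to 6.73 CPM in summed level in control libraries, reached 17.7 to 170 CPM in knockdown libraries.

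None of the 10 Müller glia genes passed the test for a difference between control and knockdown retinas. The group means differed by at most 0.09 on the log2 scale, and the control and knockdown ranges overlapped for every one of the 10. All 10 passed the expression filter of at least 1 TPM (transcripts per 1000000) in at least 4 libraries, and 0 of 10 were called by edgeR's quasi-likelihood test at an adjusted p under 0.05. By the same test 0.062% of 16118 genes were called, which is 10 genes, 7 higher and 3 lower in knockdown retinas. All 7 called higher were lens marker genes, whose summed level was only 5.38 to 6.73 CPM in control libraries. Among them Cryaa, Crygb, Crygd and Cryge had control means of 0.38, 0.09, 0.24 and 0.10 TPM. These means lie below the filter of 1 TPM, so these genes passed it through the knockdown libraries, where they were high. The source of the lens RNA was not tested. Among the 3 called lower was the ganglion cell marker Slc17a6, with a log2 fold change of -0.44. No member had an unadjusted p under 0.05, against 5.27% of all genes tested, and none had groups that did not overlap, against 3.31%. In knockdown relative to control, 6 had a positive and 4 a negative log2 fold change, with a median of 0.02, where the median over all genes was 0.00 and 51.8% were positive. Adjusted p-values from edgeR ran from 0.989 to 0.998. The 95% intervals reached from 17.7% lower, for Car14, to 28.6% higher, for Vim, and all 10 lay within a 1.5-fold change in either direction.

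**Figure D1:**
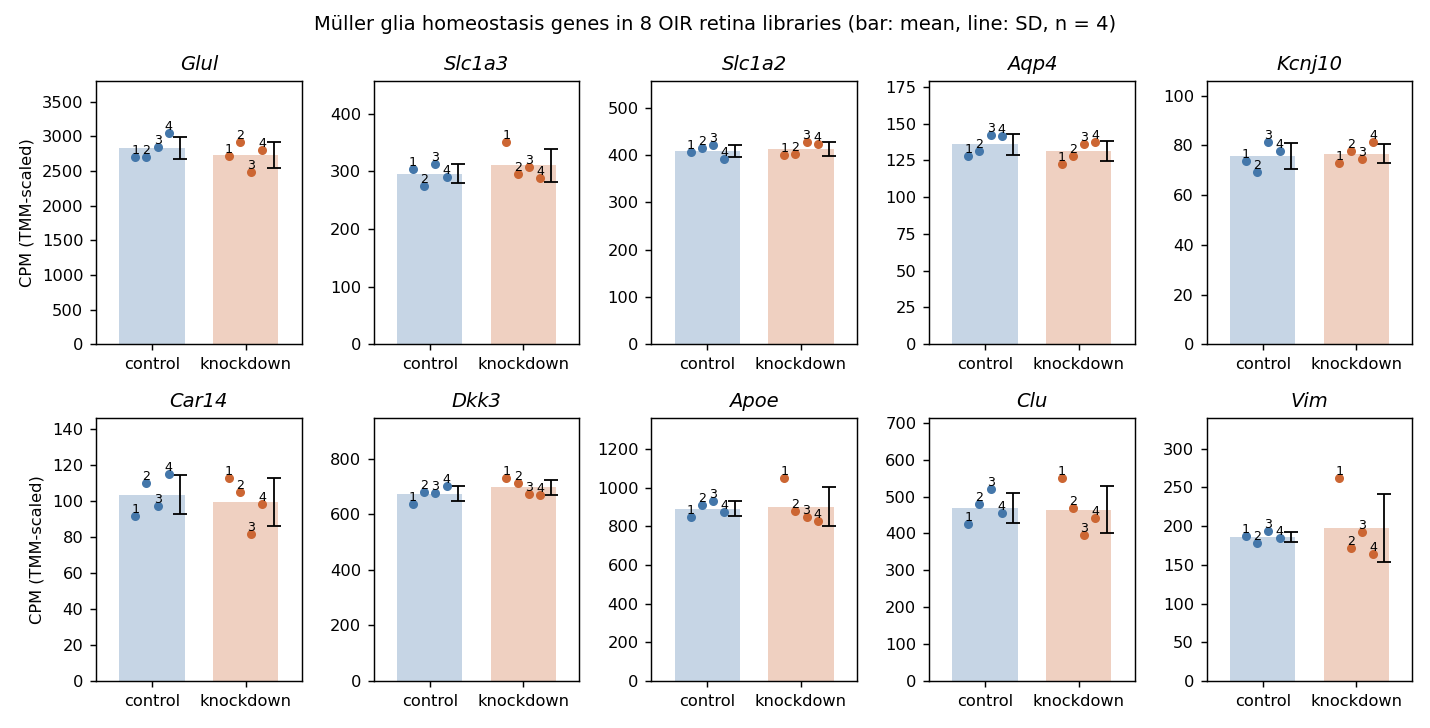
Level of each of the 10 genes in CPM in the 4 control and 4 knockdown libraries, each point 1 library, with the group mean and SD. The control and knockdown points overlap for all 10 genes, and the highest Vim value, 262 CPM, belongs to knockdown 1.

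Glul (GRCm38 chr1:153899944-153909723, plus strand) encodes glutamine synthetase, which joins ammonia to glutamate taken up by Müller glia and is a classical marker of these cells. Glul measured 2709, 2708, 2850 and 3045 CPM in control libraries 1 to 4 and 2713, 2923, 2487 and 2808 CPM in knockdown libraries 1 to 4. Control 4 was the highest and knockdown 3 the lowest library, and the groups overlapped. Means were 2828 ± 159 CPM in control and 2733 ± 185 CPM in knockdown libraries (SD, n = 4 each), a log2 fold change of -0.05 (SE 0.06; edgeR adjusted p = 0.989). In GENCODE M21, Glul shares 116 exonic bases with Teddm2 on the opposite strand and 93 with Mir8114 on its own strand, and its estimated counts were whole numbers in 1 of 8 libraries. The interval of its fold change, -0.20 to 0.10 on the log2 scale, bounds the change rather than showing that there was none.

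Slc1a3 (chr15:8634124-8710764, minus strand) encodes GLAST, the main glutamate transporter of Müller glia. Slc1a3 measured 304, 275, 312 and 291 CPM in control libraries and 351, 295, 308 and 288 CPM in knockdown libraries. Knockdown 1 lay above every other library, and the remaining 3 knockdown libraries lay inside the control range. Means were 295 ± 16.2 CPM in control and 310 ± 28.3 CPM in knockdown libraries (log2 fold change 0.07, SE 0.07; edgeR adjusted p = 0.989), and without knockdown 1 the log2 fold change was 0.01.

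Slc1a2 (chr2:102658659-102790784, plus strand) encodes GLT-1, a second glutamate transporter. Slc1a2 measured 406, 414, 420 and 392 CPM in control and 401, 402, 428 and 423 CPM in knockdown libraries. Control 4 was the lowest and knockdown 3 the highest library, and the groups overlapped. Means were 408 ± 12.3 and 413 ± 14.2 CPM, which gave a log2 fold change of 0.02 (SE 0.05; edgeR adjusted p = 0.997). Slc1a2 shares 189 exonic bases with an antisense gene on the opposite strand in GENCODE M21, and the counting is not stated to use strand.

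Of 17 other genes of glutamate and glutamine handling, 17 were tested and 0 were called, with 11 positive and 6 negative log2 fold changes and a median of 0.03. Got1, a transaminase that passes the amino group between glutamate and aspartate, measured 266 ± 17.2 CPM in control and 264 ± 6.22 CPM in knockdown libraries. Slc38a3, a glutamine transporter of glia, measured 304 ± 24.5 and 288 ± 20.7 CPM. Slc7a11, the cystine and glutamate exchanger, was chosen after its values were seen: it measured 5.34, 7.78, 6.04 and 6.51 CPM in control and 9.03, 7.87, 8.18 and 9.17 CPM in knockdown libraries. All 4 knockdown libraries lay above all 4 control libraries, but the gene did not pass the test (log2 fold change 0.42, SE 0.13; edgeR adjusted p = 0.649).

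Aqp4 (chr18:15389496-15410982, minus strand) encodes aquaporin-4, the water channel of Müller glia end-feet. Aqp4 measured 128, 132, 142 and 142 CPM in control and 123, 128, 136 and 138 CPM in knockdown libraries. Knockdown 1 was the lowest library, and the groups overlapped. Means were 136 ± 7.08 and 131 ± 6.96 CPM (a log2 fold change of -0.05, SE 0.05; edgeR adjusted p = 0.989).

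Kcnj10 (chr1:172341210-172374085, plus strand) encodes Kir4.1, the inwardly rectifying potassium channel that siphons potassium out of the retina. Kcnj10 measured 73.6, 69.3, 81.4 and 77.9 CPM in control and 72.9, 77.8, 74.5 and 81.5 CPM in knockdown libraries. Control 2 was the lowest library and knockdown 4 the highest by a small margin, and the groups overlapped. Means were 75.6 ± 5.25 and 76.7 ± 3.81 CPM (a log2 fold change of 0.02, SE 0.06; edgeR adjusted p = 0.997). In TPM, the ratio of Kcnj10 to Aqp4 was 0.503 ± 0.0202 in control and 0.529 ± 0.0236 in knockdown libraries, with overlapping ranges.

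Car14 (chr3:95897768-95904691, minus strand) encodes carbonic anhydrase 14, a membrane enzyme that speeds the exchange of carbon dioxide and bicarbonate. Car14 measured 91.6, 109.9, 96.9 and 114.8 CPM in control and 112, 105, 81.6 and 98.4 CPM in knockdown libraries. Knockdown 3 was the lowest of the 8 libraries and control 4 the highest, and the groups overlapped. Means were 103 ± 10.9 and 99.3 ± 13.1 CPM (a log2 fold change of -0.06, SE 0.09; edgeR adjusted p = 0.997). Car14 shares 445 exonic bases, 17.5% of its exonic length, with Aph1a on the opposite strand, and its estimated counts carried fractions in all 8 libraries.

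Of 20 other genes of water and potassium handling and the dystrophin complex, which holds the channels at the end-feet, 18 were tested and 0 were called, with 10 positive and 8 negative log2 fold changes and a median of 0.00433. Atp1b2, a sodium pump subunit of glia, measured 1400 ± 49.6 CPM in control and 1328 ± 103 CPM in knockdown libraries. Atp1b1, a neuronal sodium pump subunit, measured 613, 621, 627 and 606 CPM in control and 488, 584, 572 and 582 CPM in knockdown libraries, so its groups did not overlap (log2 fold change -0.15; edgeR adjusted p = 0.897). Of 21 other carbonic anhydrases and acid, bicarbonate and lactate transport genes, 19 were tested and 0 were called, with 9 positive and 10 negative values and a median of -0.00127. Among them Bsg, which escorts lactate transporters to the membrane, measured 572 ± 26.9 and 567 ± 83.3 CPM, and Car2, the cytosolic carbonic anhydrase, 434 ± 15.9 and 440 ± 20.8 CPM.

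**Figure D2:**
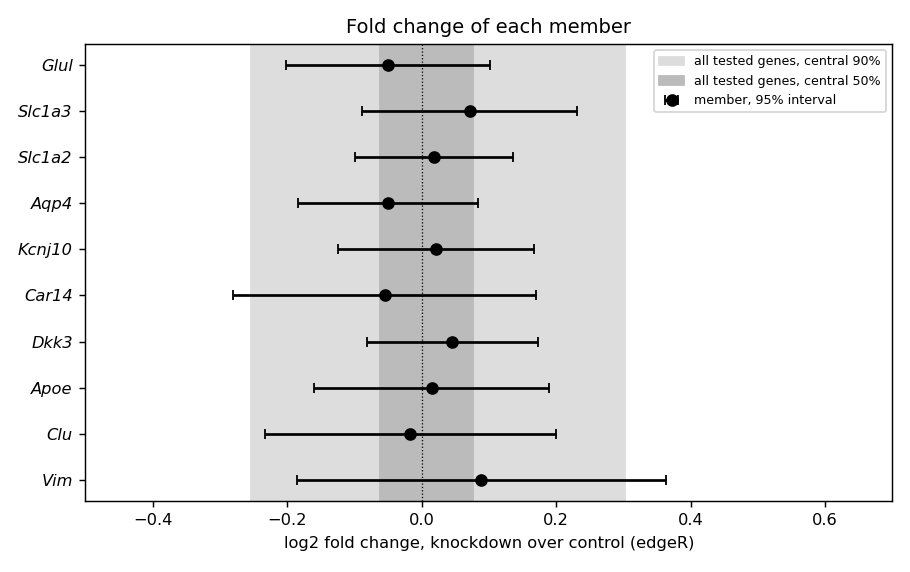
Log2 fold change of each of the 10 genes, knockdown over control, with its 95% interval from the edgeR fit. Every interval includes 0, and the values run from -0.06 for Car14 to 0.09 for Vim.

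Dkk3 (chr7:112116017-112159057, minus strand) encodes a secreted protein of the Dickkopf family, whose other members regulate Wnt signalling, and is used as a marker of Müller glia. Dkk3 measured 636, 681, 677 and 703 CPM in control and 728, 712, 674 and 669.6 CPM in knockdown libraries. Knockdown 1 and 2 lay above the control range and the other 2 inside it. Means were 674 ± 28.1 and 696 ± 28.7 CPM (a log2 fold change of 0.05, SE 0.05; edgeR adjusted p = 0.989). Of 12 other Dickkopf genes and their receptors and relatives, 5 were tested and 0 were called, with a median log2 fold change of 0.06. The Wnt co-receptor Lrp6 measured 102 ± 4.78 and 102 ± 8.30 CPM, and Kremen1, a Dickkopf receptor, 42.2 ± 2.56 and 47.6 ± 11.5 CPM.

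Apoe (chr7:19696109-19699188, minus strand) encodes apolipoprotein E, the carrier by which glia pass cholesterol and lipid to neurons. Apoe measured 845, 910.1, 930.1 and 876 CPM in control and 1047, 879.8, 846 and 826 CPM in knockdown libraries. Knockdown 1 was the highest library and knockdown 4 the lowest, so the knockdown group spanned more than the control group on both sides. Means were 890.2 ± 37.5 and 899.6 ± 101 CPM (a log2 fold change of 0.02, SE 0.07; edgeR adjusted p = 0.998). Without knockdown 1 the value turned to -0.07 (edgeR adjusted p = 0.782).

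Clu (chr14:65968483-65981547, plus strand) encodes clusterin, a secreted chaperone and lipid carrier. Clu measured 425, 479, 519.8 and 454 CPM in control and 549, 470.05, 395 and 442 CPM in knockdown libraries. Knockdown 1 was again the highest and knockdown 3 the lowest library, and the groups overlapped. Means were 469.6 ± 40.1 and 464 ± 64.4 CPM (a log2 fold change of -0.02, SE 0.09; edgeR adjusted p = 0.998), and without knockdown 1 the value was -0.11 (edgeR adjusted p = 0.740). In TPM, the ratio of Apoe to Clu was 2.82 ± 0.123 in control and 2.89 ± 0.192 in knockdown libraries.

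Of 24 other lipoprotein and cholesterol genes, 23 were tested and 0 were called, with 9 positive and 14 negative log2 fold changes and a median of -0.02. Scarb1, a receptor for high-density lipoprotein, measured 133 ± 4.96 and 140 ± 7.75 CPM, and Vldlr, a receptor for lipoproteins that carry apolipoprotein E, 360.2 ± 8.62 and 354 ± 8.79 CPM. Apod, apolipoprotein D, was chosen after its values were seen: it measured 16.01, 19.1, 7.69 and 15.4 CPM in control and 6.78, 7.14, 7.31 and 8.23 CPM in knockdown libraries. Control 3 lay among the knockdown libraries and the other 3 control libraries above all of them. Its log2 fold change of -0.98 (SE 0.21; edgeR adjusted p = 0.200) did not pass. Apod did pass with no expression filter and with DESeq2 (adjusted p = 0.00218). It also passed with control 3 left out (log2 fold change of -1.19, edgeR adjusted p = 0.000468), and without both control 3 and knockdown 1. Control 3 was the only control library among the knockdown libraries, so its removal favoured a pass and adds no support. None of the other alternative settings given below called Apod.

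Vim (chr2:13573927-13582826, plus strand) encodes vimentin, the intermediate filament of Müller glia, and was the member with the largest log2 fold change. Vim measured 187, 178, 193 and 184 CPM in control and 262, 172, 193 and 164 CPM in knockdown libraries. Knockdown 1 lay far above the other libraries, while knockdown 2 and 4 lay below the control range. Means were 186 ± 6.17 and 198 ± 44.4 CPM, a coefficient of variation of 3.32% in control and 22.5% in knockdown libraries. This gave a log2 fold change of 0.09 (SE 0.11; edgeR adjusted p = 0.989), which without knockdown 1 turned to -0.08 (edgeR adjusted p = 0.770). Of 7 other intermediate filament genes, 7 were tested and 0 were called, with a median of 0.02. Gfap, the filament protein that marks reactive glia, measured 55.7, 38.6, 66.8 and 45.3 CPM in control and 135, 39.4, 45.4 and 32.3 CPM in knockdown libraries, again highest in knockdown 1. The epithelial keratin Krt18 measured 60.2 ± 3.66 and 59.9 ± 5.57 CPM.

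The highest and lowest values of the 10 members fell in 7 of the 8 libraries, all but knockdown 2. Knockdown 1 was the highest of 8 libraries for 5 members, Slc1a3, Dkk3, Apoe, Clu and Vim, and the lowest for Aqp4. Relative to the control mean, on the log2 scale, it lay at 0.49 for Vim, 0.25 for Slc1a3, 0.23 for Apoe, 0.23 for Clu, 0.12 for Car14, 0.11 for Dkk3, -0.03 for Slc1a2, -0.05 for Kcnj10, -0.06 for Glul and -0.15 for Aqp4, which is 6 members above and 4 below. Knockdown 3 was the lowest library for 3 members, at -0.34 for Car14, -0.25 for Clu and -0.19 for Glul. That library also had the lowest total, 16.03 M, the highest summed lens genes, 170 CPM, and the lowest summed rod markers, 41067 CPM. The part of these in its values was not tested. Without knockdown 1, 4 members rather than 6 had positive log2 fold changes, and the median moved from 0.02 to -0.03.

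**Figure D3:**
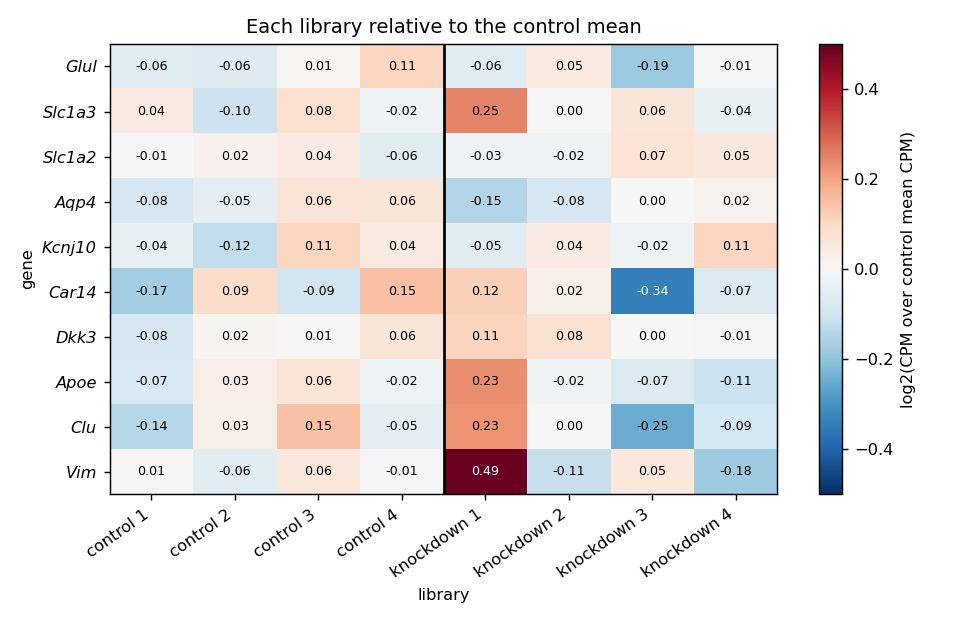
Log2 level of each of the 10 genes in each library relative to the control mean. Knockdown 1 shows the highest values for Vim, at 0.49, and for Slc1a3, Apoe and Clu.

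The acute gliosis genes give the setting in which knockdown 1 differed. Of 23 genes, 20 were tested and 0 were called, with 20 positive and 0 negative log2 fold changes, a median of 0.50 and 9 with an unadjusted p under 0.05. Their summed level in knockdown 1 was 2.38-fold the control mean, and 19 of the 20 were highest in that library. The metallothionein genes Mt2 and Mt1 measured 20.6 ± 2.54 and 34.5 ± 3.43 CPM in control and 31.1 ± 22.1 and 43.2 ± 23.1 CPM in knockdown libraries. Lcn2 and Serpina3n were chosen after their values were seen. Lcn2, a secreted iron-siderophore carrier induced in reactive glia, measured 2.66 to 4.15 CPM in control libraries and 123, 7.66, 2.85 and 1.98 CPM in knockdown libraries. Serpina3n, a protease inhibitor of reactive glia, measured 4.49 to 7.93 CPM in control libraries, 139 CPM in knockdown 1 and 4.56 to 5.84 CPM in the other 3. Without knockdown 1, an alternative added after seeing the data, 10 were positive and 10 negative and the median was 0.02. These genes and the marker sums given above were extreme in the same library as Vim, Slc1a3, Apoe and Clu, and their part in those values was not tested.

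**Figure D4:**
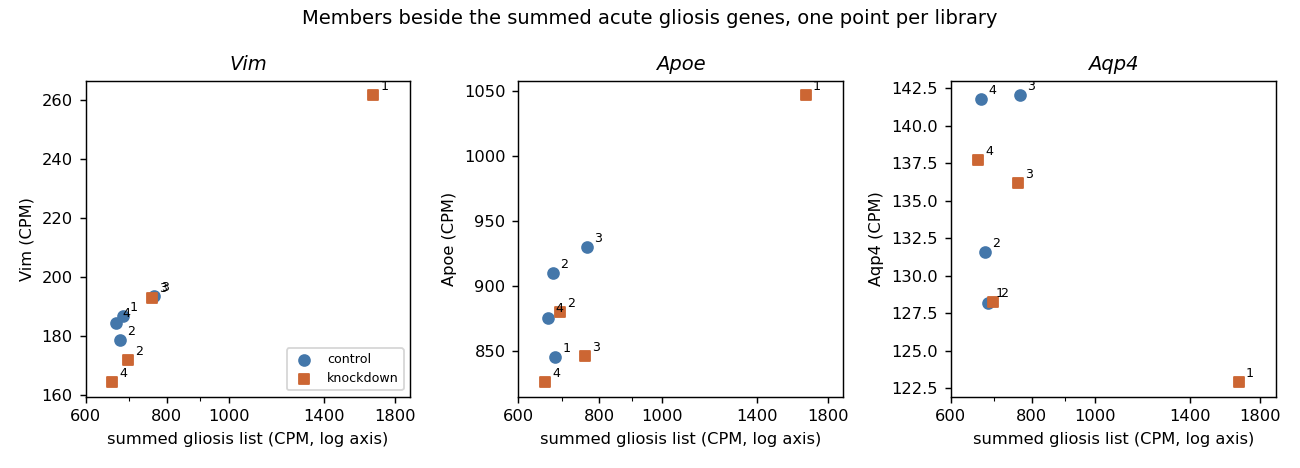
Levels of Vim, Apoe and Aqp4 in CPM against the summed CPM of the acute gliosis genes (log axis), each point 1 library. Knockdown 1 stands alone at 1666 CPM with Vim at 262 CPM and Apoe at 1047 CPM, and with Aqp4 at 123 CPM.

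Among the members, Pearson r of log2 CPM with group means removed was computed over 8 libraries, for 45 pairs, as a description. The values ran from -0.72 to 0.92 with a median of 0.04, and 25 were positive. Slc1a3 and Vim had the highest r, 0.92, which was 0.78 without knockdown 1. Apoe and Clu followed at 0.89, and 0.80 without that library, whereas Apoe and Vim had 0.86 and 0.13. Aqp4 and Kcnj10, both of the end-feet, had 0.72 and 0.66. Slc1a2 and Car14 had the lowest r, -0.72, and -0.65 without knockdown 1. All members were read from the same libraries, so they share each library's depth and composition. The genes whose pattern over 8 libraries was most like the mean of the members were Tprkb (r = 0.98), Cckbr (r = 0.97), Sdf4 (r = 0.95), Tradd (r = 0.93) and Fcf1 (r = 0.93). They were picked for the highest r among the tested genes, so high values follow from the choice. With a median r of 0.04 between members, their mean is not a pattern that all members share.

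Per length, in TPM, the members spanned 70.7-fold in mean level. The order was Glul at 2460 TPM, Apoe at 1810 TPM, Clu at 637 TPM, Dkk3 at 504 TPM, Vim at 216 TPM, Slc1a3 at 180 TPM, Car14 at 146 TPM, Slc1a2 at 87.6 TPM, Aqp4 at 67.5 TPM and Kcnj10 at 34.8 TPM, and it was the same in all 8 libraries. The ranges of neighbours overlapped only for Vim and Slc1a3. Glul ranked 28 and Apoe 34 by TPM among all genes tested, and Kcnj10 ranked 5312. Glul held 36.1% of the summed TPM of the 10 in knockdown 1 and up to 42.5% in control 4. The ratio of Slc1a3 to Slc1a2, the transporters, was 2.02 ± 0.112 in control and 2.10 ± 0.238 in knockdown libraries, with 2.44 in knockdown 1. Its size depends on the gene lengths used, 4163 bases for Slc1a3 and 11595 for Slc1a2. In CPM, which is not divided by length, Slc1a3 lay below Slc1a2, at 295 against 408 CPM in control libraries. Glul over Slc1a3 was 14.3 ± 1.06 and 13.2 ± 1.68, with 11.5 in knockdown 1, and Vim over Glul 0.0838 ± 0.00473 and 0.0927 ± 0.0231, with 0.123 in knockdown 1. The control and knockdown ranges overlapped for every one of these ratios.

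Of 19 other Müller glia identity genes, 0 were called, with 11 positive and 8 negative log2 fold changes and a median of 0.01. Rlbp1 measured 439.9 ± 30.1 and 438.6 ± 27.9 CPM, and Ptn, a secreted growth factor, 121 ± 10.1 and 118 ± 6.60 CPM. Hes1, a Notch target that helps keep glial identity, was chosen after its values were seen: it measured 11.5, 12.3, 12.4 and 13.5 CPM in control and 15.3, 14.3, 15.9 and 16.1 CPM in knockdown libraries. All 4 knockdown libraries lay above all 4 control libraries, and Hes1 did not pass the test (log2 fold change 0.31, SE 0.09; edgeR adjusted p = 0.465).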

How the data were processed

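Retinal RNA from 4 control and 4 knockdown libraries was sequenced as 150-base paired reads, per the labels' protocols. The name of the deposited table says TPM, but its values are the authors' estimated counts for each gene, as library totals of 16.03 to 21.4 M (M, 1000000) show. The counting tool is not given in the sources used here. Per the submitters' processing notes, Bowtie 0.12.2 and mm9 are named without a role. Gene positions and overlaps came from GENCODE M21 on GRCm38, matched by gene ID for 52029 of 57010 genes (91.3%), and promoters from RefSeq on GRCm38.p6.

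Counts were rounded, TPM was computed from counts and gene lengths, and genes reaching 1 TPM in 4 or more of 8 libraries were tested with the edgeR 4.0.16 quasi-likelihood test in R 4.3.3 (TMM scaling, group as the only term, Benjamini-Hochberg over all genes tested, called under 0.05). CPM is per 1000000 counts of tested genes, TMM-scaled. SE was taken as the size of the log2 fold change divided by the root of F, and 95% intervals use 6 residual degrees of freedom. limma 3.58.1 and DESeq2 1.42.0 served as alternatives, beside other scalings, filters, a Ddx3y covariate, a replicate block and left-out libraries. Correlations of same-numbered libraries, with group means removed, were -0.11 to 0.01. With so few libraries this cannot show whether the numbers pair them, and the reported test was unpaired.

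Members, lists and tests were chosen with earlier results of these data known. All members were named, and of each other pathway list and the gliosis list the called genes or the 2 with the highest mean TPM. Some cell type marker lists are given by their sums, with Gnat1 as the rod example and Slc17a6 as a called ganglion cell gene. The sums of the other marker lists are not reported here. The likeness rule took the 5 genes with the highest r to the members' mean z-score. Any other gene is said to be chosen after seeing its values. Values of some list genes are not reported here. Depth limits low genes most, and the members' levels far exceed a floor of 3 counts.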

Additional observations from a re-analysis of the deposited data

How the results depend on the processing

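None of the 10 members was called under any of the 21 alternatives, and the lowest adjusted p, 0.740 for Clu, came without knockdown 1. The number of all genes called was 10 in the reported test, 45 with DESeq2, 0 with limma on log2(TPM + 1), 0 with limma on log2(TPM + 5), 157 with no expression filter, 1 with a mean TPM of at least 5, 0 with robust dispersion, and 69 without control 3 and knockdown 1 together. Unadjusted p under 0.05 was found for 804, 802 and 833 genes in those 3 tests with 0 calls. Leaving out 1 library at a time gave 0 to 58 calls by edgeR: 0 without control 1 or control 2 (unadjusted p under 0.05 for 674 and 821 genes), 1 without control 4 and 58 without control 3. The replicate block gave 11 calls, none of them a member, with a members' median log2 fold change of 0.01. The members' median ran from -0.03 to 0.04 when 1 library was left out. Small values changed sign for 7 members. Leaving out 1 library in turn gave log2 fold changes of -0.0658 to 0.0528 for Apoe, -0.119 to 0.0268 for Car14, -0.107 to 0.0526 for Clu, -0.0178 to 0.0592 for Kcnj10, -0.000755 to 0.0328 for Slc1a2 and -0.0766 to 0.167 for Vim. Without control 3 and knockdown 1 together the values were -0.0452 for Apoe, 0.000875 for Aqp4 and -0.0577 for Vim, and with the Ddx3y covariate 0.00356 for Clu. The cause was not tested. With no expression filter, 8 gliosis genes and Apod were called, and Apod also with DESeq2. The scaling alternatives moved the median of all genes by less than 0.01 on the log2 scale.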
